A study of Mus musculus with 8 samples.

Results

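The 66 mouse genes described here encode guidance cues and their receptors: 20 semaphorins of classes 3 to 7, 2 neuropilins and 9 plexins, 8 ephrins and 14 Eph receptors, 3 Slits and 4 Robo receptors, netrin 1, and the netrin receptors *Dcc* and *Unc5a* to *Unc5d*. They were chosen by a rule on gene symbols that uses no measured value, with earlier results of these data known, from the 53090 genes listed for each nerve. Guidance cues steer growing axons and migrating cells by attraction or repulsion. Semaphorins act through plexins, with neuropilins as the ligand-binding partners for most secreted class 3 members, and Slits, netrins and ephrins act through Robo, DCC or UNC5, and Eph receptors. In peripheral nerve the same molecules are made by Schwann cells, fibroblasts and vessels as well as by neurons, and ephrin-B and EphB2 contacts are known to make Schwann cells cluster at injury sites in rodents.

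Sciatic nerves of 4 *Nae1* cKO mice and 4 littermate controls, labelled WT, were taken at P7, and their total RNA was sequenced after ribosomal RNA had been depleted. *Nae1* cKO mice were Nae1 f/f and carried a Cre transgene that deletes *Nae1* in Schwann cells. Fibroblasts, vessels, macrophages and axons of the same nerve were sequenced with them. WT mice had no Cre and were Nae1 f/+ or Nae1 f/f, so both groups carried the floxed allele. NAE1 is part of the enzyme that activates NEDD8, a ubiquitin-like protein attached to cullins and other targets. The question was how guidance genes differ in RNA level between mutant and control nerves. Libraries are given below in the order K2, L1, L5 and L8 for *Nae1* cKO and K1, L3, L4 and L9 for WT, and no label says whether the K and L of these names mark a batch. Each library is taken to be 1 mouse. Were that not so, p values would measure only the spread between libraries.

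Depth was 12962798 to 13855366 expected counts per *Nae1* cKO nerve and 13508752 to 14766770 per WT nerve. *Nae1* itself (ENSMUSG00000031878.18, GRCm38 chromosome 8, 104511028 to 104534637, minus strand) was at 57.1, 57.2, 48.9 and 43.8 CPM in *Nae1* cKO nerves, against 89.8, 81.3, 77.7 and 82.7 CPM in WT nerves (CPM, counts scaled to a total of 1000000 after TMM scaling between libraries). The groups did not overlap, and *Nae1* had a log2 fold change of −0.68 with an SE of 0.10 (adjusted p = 2.8e-04 by edgeR). In the paper's design Cre removes exon 4 of *Nae1*. Counts over the whole gene can still include transcripts without that exon and those of other cells, so they do not measure how complete the deletion was. *Nae1* cKO nerve K2 stood apart, with the noncoding RNA 7SK at 4.70% and mitochondrial genes at 1.54% of its counts. In the other 3 nerves of its group these shares were 1.94% to 2.43% and 3.08% to 3.13%. Cell type markers moved too. Of 15 macrophage markers 10 were higher and 0 lower, with a summed level of 495 to 646 CPM in *Nae1* cKO nerves and 292 to 330.2 CPM in WT nerves. Of 10 endothelial markers 0 were higher and 4 lower (232 to 279 CPM in *Nae1* cKO nerves and 305 to 376 CPM in WT nerves), and of 9 Schwann cell lineage markers 2 were higher and 3 lower (2547 to 2899 CPM and 3030.2 to 3284 CPM in the same order). Of 10 fibroblast markers 4 were higher, 0 lower and 6 not called, with overlapping sums (19526 to 21988 CPM in *Nae1* cKO nerves, 15764 to 19892 CPM in WT nerves). *Col3a1* alone had means of 14198 CPM in *Nae1* cKO nerves and 11993 CPM in WT nerves. *Pdgfra* (242 to 418 CPM in *Nae1* cKO nerves, 143 to 161 CPM in WT nerves) was higher without overlap. So were *Dcn* (821 to 965 CPM and 520 to 552 CPM) and *Lum* (278 to 385 CPM and 131 to 196 CPM), in the same order. Of 13 skeletal muscle markers 5 were lower and 0 higher, with sums of 97.3 to 249 CPM in *Nae1* cKO nerves and 157 to 2298 CPM in WT nerves, highest in WT nerves L4 and K1 (1437 CPM). The summed level of 8 neuronal markers was low, at 23.2 to 30.7 CPM in *Nae1* cKO nerves and 18.7 to 27.6 CPM in WT nerves. The nuclear neuronal marker *Rbfox3* had 0 counts in every nerve. The part of these cells in the differences below was not tested, and in bulk RNA fewer cells of a type and less RNA per cell cannot be told apart.

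Guidance genes changed in both directions in *Nae1* cKO nerves, and most changes were under 2-fold. Of the 66 genes, 57 passed edgeR's filter on low counts and 9 did not (*Sema3a*, *Sema4f*, *Slit1*, *Robo3*, *Efna3*, *Epha8*, *Epha10*, *Dcc* and *Unc5d*), none of which had more than 15 counts in any nerve. At an adjusted p under 0.05 from edgeR's quasi-likelihood test, 30 of the 57 were called, against 26.4% of all 17090 genes tested. Of these, 12 were higher (14.1% of all genes) and 18 lower (12.3% of all genes) in *Nae1* cKO nerves. Below, a value in parentheses with an adjusted p is the log2 fold change of *Nae1* cKO over WT. The 57 genes had a median log2 fold change of −0.071 and a median size of 0.52 without its sign, against 0.0066 and 0.25 over all genes tested. In 31 of the 57 the 4 nerves of one group all lay beyond the 4 of the other (28.6% of all genes; 13 higher against 14.9%, 18 lower against 13.7%), and these were the 30 called genes and *Efnb2*. Limma on log2(TPM + 1) shared 10 of the 30 calls. Only *Sema4g*, *Sema6b* and *Sema6d*, all lower, were called and past 2-fold, 3 of 57 against 6.75% of all genes (0 higher against 4.25%, 3 lower against 2.49%). *Sema6a* (0.99) and *Nrp2* (−0.98) were called and lay just short of that limit, and the count came to 5 without *Nae1* cKO nerve L5 or WT nerve K1 and to 6 without WT nerve L3. In only the nerves with the letter L it came to 2. By system, 12 of 18 tested semaphorins, 8 of 11 plexins and neuropilins, 4 of 5 Slit and Robo genes, 5 of 19 ephrins and Eph receptors, and 1 of 4 netrin genes were called.

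**Figure D1:**
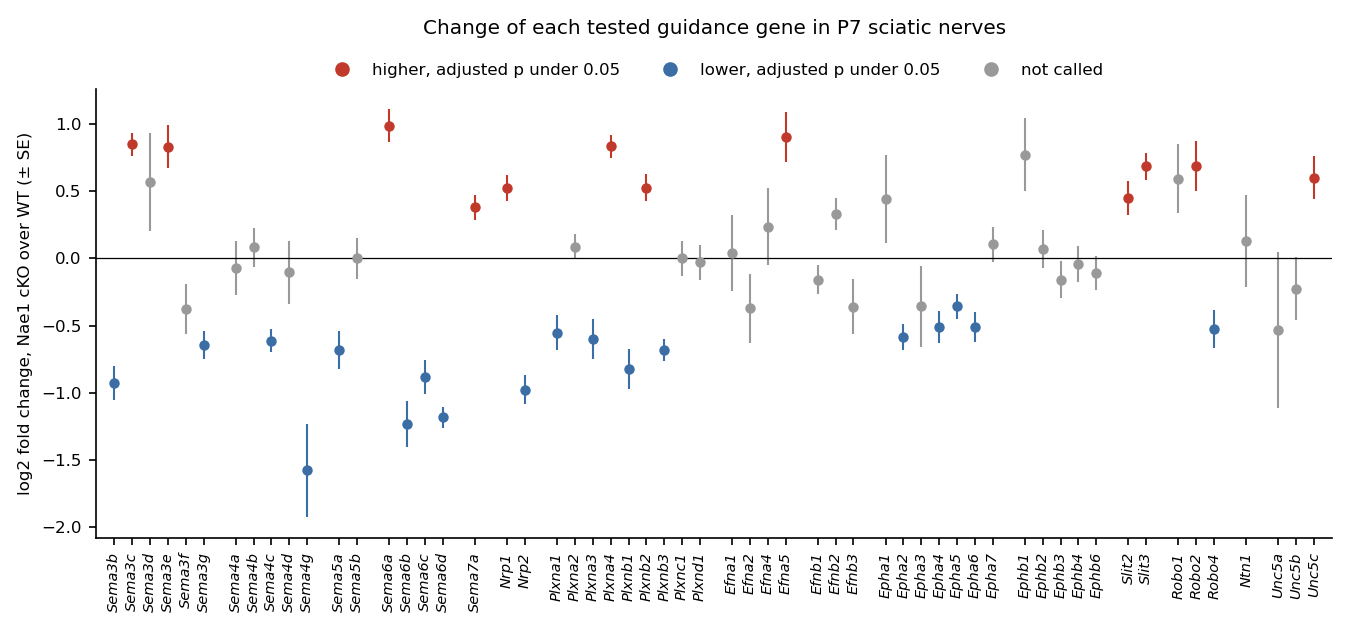
Log2 fold change in *Nae1* cKO over WT nerves (vertical axis, bars: SE, n = 4 nerves per group) for the 57 tested guidance genes, ordered by family along the horizontal axis and colored by call at an edgeR adjusted p under 0.05. Called genes lie on both sides of 0 among semaphorins, neuropilins and plexins, whereas the called EphA genes all lie below 0.

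Levels of different genes are compared as TPM, the authors' length-corrected value that sums to 1000000 in each library. From 65.5% to 81.0% of the TPM of *Nae1* cKO nerves and 70.3% to 77.2% of that of WT nerves fell in genes shorter than 400 bases, and this share sets the TPM of all other genes. TPM is therefore used for the order of genes within a nerve or group, and CPM for the comparison of nerves. The TPM means below are printed for that order, and their SD includes the spread of this share between nerves. *Sema6d* and *Sema3b* were the most abundant guidance transcripts, at 67.4 ± 17.5 TPM in *Nae1* cKO nerves and 138 ± 21.6 TPM in WT nerves for *Sema6d* and 72.1 ± 7.91 TPM in *Nae1* cKO nerves and 127 ± 17.9 TPM in WT nerves for *Sema3b* (SD, n = 4 each). Below these by group mean came *Plxnd1*, which encodes the receptor of secreted SEMA3E, *Slit2*, *Nrp1*, *Sema5a* and *Ephb6* in *Nae1* cKO nerves, and *Sema5a*, *Plxnb3*, *Plxnd1*, *Sema4c* and *Nrp2* in WT nerves. *Plxnd1* was at 38.2 ± 17.1 TPM in *Nae1* cKO nerves and 32.9 ± 4.82 TPM in WT nerves (SD, n = 4 each), and its ranges overlapped those of *Sema5a* and *Plxnb3* in both groups. The ranges of *Sema6d* and *Sema3b* overlapped each other in both groups. At the other end among tested genes, *Epha1*, *Epha3*, *Unc5a*, *Robo1*, *Ephb1* and *Unc5b* had the lowest means over all nerves. *Ephb1* was at 0.713 ± 0.138 TPM in *Nae1* cKO nerves and 0.310 ± 0.144 TPM in WT nerves and *Robo1* at 0.560 ± 0.280 TPM in *Nae1* cKO nerves and 0.310 ± 0.0589 TPM in WT nerves (SD, n = 4 each). The 9 genes below the filter were under 0.7 TPM in every nerve.

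**Figure D2:**
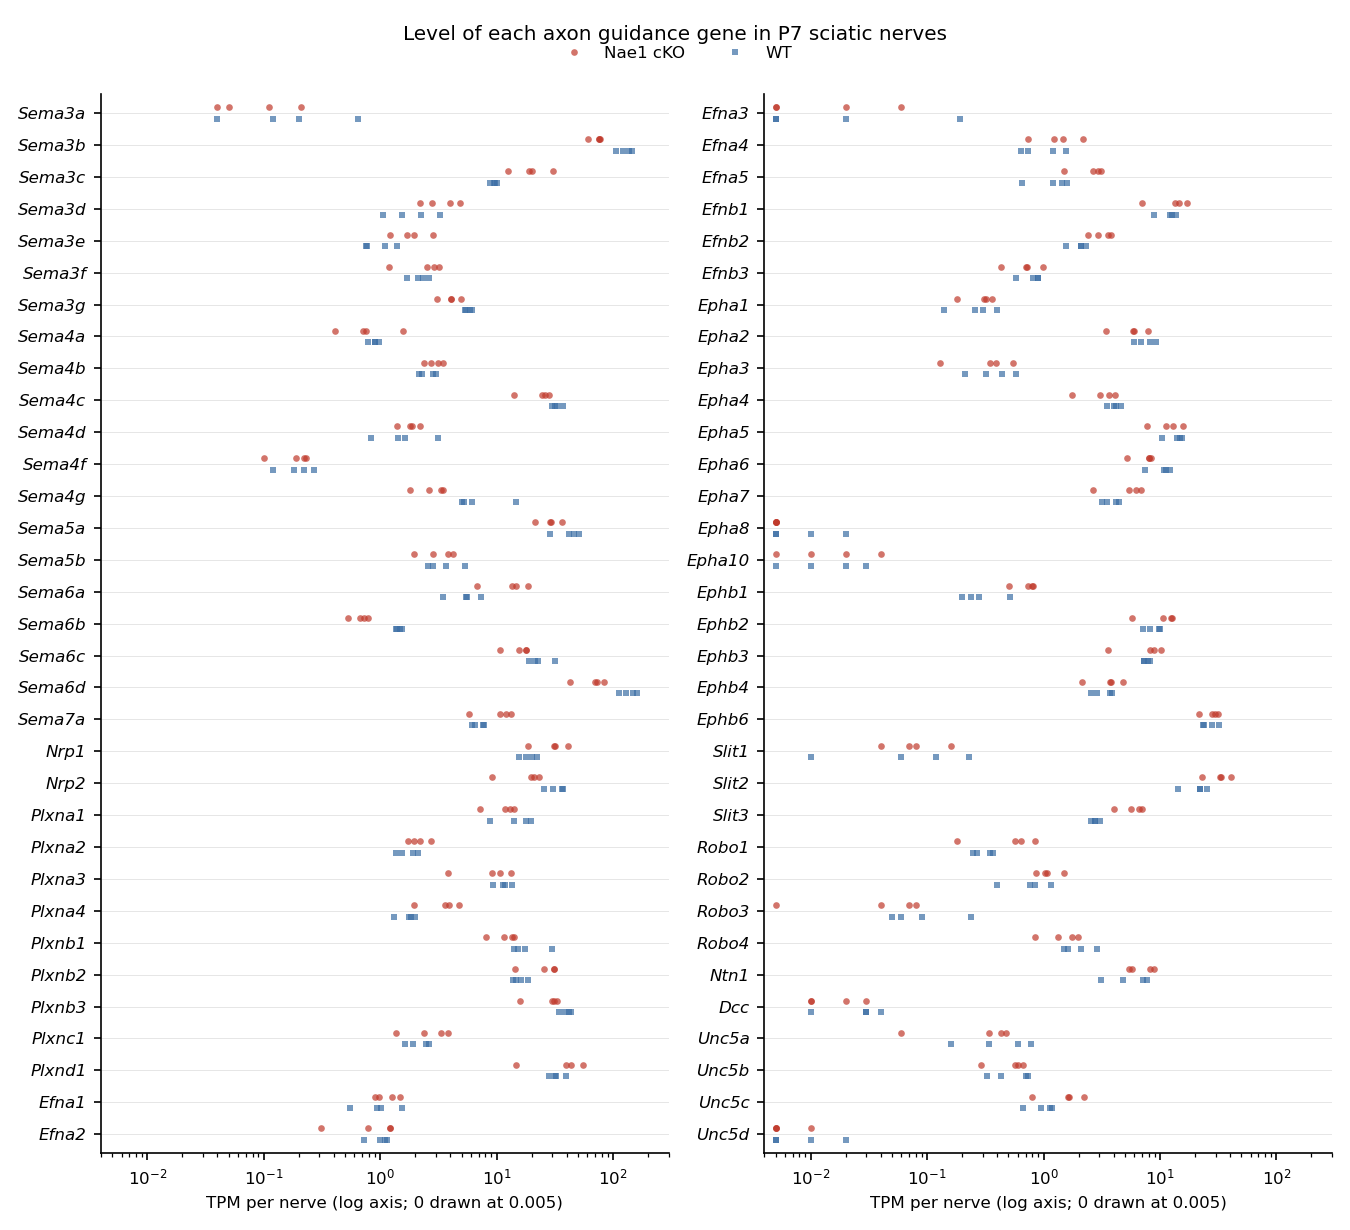
TPM of each of the 66 guidance genes in each nerve (horizontal log axis, values of 0 drawn at 0.005), with *Nae1* cKO nerves as red circles above WT nerves as blue squares. Levels span from 0 for *Epha8* and *Unc5d* to over 100 TPM for *Sema6d* and *Sema3b* in WT nerves.

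The class 6 semaphorins, transmembrane ligands of plexin-A receptors, all changed. *Sema6d* (ENSMUSG00000027200.17, GRCm38 chromosome 2, 124089969 to 124667770, plus strand) was at 501, 524, 557 and 532 CPM in *Nae1* cKO nerves, against 1134, 1145, 1201 and 1313 CPM in WT nerves. The lowest control was about 2-fold above the highest mutant nerve. The log2 fold change was −1.18 with an SE of 0.078 (adjusted p = 8.5e-07 by edgeR), the smallest adjusted p among the guidance genes. *Sema6b*, a ligand of plexin-A4, was at 3.88, 2.65, 3.47 and 3.76 CPM in *Nae1* cKO nerves, against 9.50, 7.82, 8.03 and 6.91 CPM in WT nerves. This gave a log2 fold change of −1.23 with an SE of 0.17 (adjusted p = 2.3e-04 by edgeR). *Sema6c* fell too, to 29.7 to 40.1 CPM in *Nae1* cKO nerves, against 50.8 to 75.7 CPM in WT nerves (−0.88, edgeR adjusted p = 2.9e-04). *Sema6a* (ENSMUSG00000019647.16, GRCm38 chromosome 18, 47235598 to 47368870, minus strand), a ligand of plexin-A2 and plexin-A4 that boundary cap cells at the nerve exit points are known to make, moved the other way. It was at 50.2, 56.1, 55.3 and 66.3 CPM in *Nae1* cKO nerves, against 23.9, 30.6, 34.3 and 26.1 CPM in WT nerves, without overlap, and its log2 fold change was 0.99 with an SE of 0.12 (adjusted p = 1.0e-04 by edgeR). Within a nerve, the TPM ratio of *Sema6a* to *Sema6d* was 0.160, 0.220, 0.185 and 0.209 in *Nae1* cKO nerves, against 0.0308, 0.0426, 0.0492 and 0.0349 in WT nerves, so *Sema6d* stayed the more abundant of the pair in every nerve.

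Class 3 semaphorins are secreted. *Sema3b* (ENSMUSG00000057969.15, GRCm38 chromosome 9, 107597674 to 107609229, minus strand), which acts through neuropilins, was at 346, 227, 278 and 279 CPM in *Nae1* cKO nerves, against 590.3, 449, 570.3 and 540.3 CPM in WT nerves, and the lowest control lay above the highest mutant nerve, K2. Its log2 fold change was −0.93 with an SE of 0.13 (adjusted p = 2.1e-04 by edgeR). *Sema3c* (ENSMUSG00000028780.13, GRCm38 chromosome 5, 17574281 to 17730268, plus strand), which can bind both neuropilins, was at 119.9, 143, 129.9 and 113 CPM in *Nae1* cKO nerves, against 72.9, 74.5, 67.6 and 66.4 CPM in WT nerves. All mutant nerves were above all controls, whose levels lay close together, and the log2 fold change was 0.85 with an SE of 0.086 (adjusted p = 2.2e-05 by edgeR). *Sema3e*, the neuropilin-independent ligand of plexin-D1, was also higher, at 13.5 to 18.9 CPM in *Nae1* cKO nerves, against 7.02 to 11.6 CPM in WT nerves (0.83, edgeR adjusted p = 0.0025). *Sema3g*, a ligand of neuropilin 2 known from arterial endothelium, was lower, at 23.0 to 27.8 CPM in *Nae1* cKO nerves, against 33.0 to 41.9 CPM in WT nerves (−0.64, edgeR adjusted p = 5.9e-04). Of the 10 endothelial markers 4 were lower and 6 did not pass, and their part in the level of *Sema3g* was not tested. *Sema3d* varied within both groups, at 27.5, 31.7, 20.3 and 26.9 CPM in *Nae1* cKO nerves, against 24.2, 26.7, 12.8 and 7.79 CPM in WT nerves, and did not pass the test (0.57, adjusted p = 0.305 by edgeR). *Sema3f*, a ligand of neuropilin 2, did not pass either, and *Sema3a*, the best known ligand of neuropilin 1, had 5 to 9 counts in *Nae1* cKO nerves and 3 to 15 in WT nerves. The TPM ratio of *Sema3c* to *Sema3b* within a nerve was 0.208, 0.401, 0.267 and 0.248 in *Nae1* cKO nerves, against 0.0725, 0.0921, 0.0692 and 0.0693 in WT nerves.

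Of the membrane-bound semaphorins of classes 4, 5 and 7, *Sema4c*, *Sema4g* and *Sema5a* were lower and *Sema7a* was higher. *Sema4c*, a ligand of plexin-B2, was at 81.4, 81.5, 88.0 and 95.9 CPM in *Nae1* cKO nerves, against 145, 132, 134 and 120.1 CPM in WT nerves. The groups were apart, and *Sema4c* had a log2 fold change of −0.61 with an SE of 0.083 (adjusted p = 1.9e-04 by edgeR). *Sema5a*, which carries thrombospondin repeats beside its semaphorin domain and can bind plexin-B3, was at 468, 411, 406 and 398 CPM in *Nae1* cKO nerves, against 782, 470.0, 754 and 691 CPM in WT nerves. WT nerve L3 lay far below the other controls and just above mutant nerve K2, and the log2 fold change of *Sema5a* was −0.68 with an SE of 0.14 (adjusted p = 0.0037 by edgeR). Without WT nerves K1 and L4, which had the most muscle RNA, its call was lost (−0.47, adjusted p = 0.0674 by edgeR), in a fit with fewer samples that kept L3. WT nerve L9 had the lowest summed muscle markers of the controls (157 CPM) and 691 CPM of *Sema5a*. In L3 these values were 407 CPM and 470.0 CPM, and the part of muscle in the level of *Sema5a* was not tested. *Sema4g*, another ligand of plexin-B2, was at 15.4, 12.4, 19.0 and 19.3 CPM in *Nae1* cKO nerves, against 37.0, 40.3, 87.7 and 32.1 CPM in WT nerves. All controls were above all mutant nerves, but WT nerve L4, the one with the most muscle RNA, had more than the other controls. WT nerve K1, at 1437 CPM of summed muscle markers, had 37.0 CPM of *Sema4g*, and L3, at 407 CPM, had 40.3 CPM. The part of muscle in the level of *Sema4g* was not tested. The log2 fold change of *Sema4g* was −1.58 with an SE of 0.35 (adjusted p = 0.0126 by edgeR), and −1.14 (edgeR adjusted p = 4.2e-04) without L4, while without *Nae1* cKO nerve K2 its call was lost (−1.55, adjusted p = 0.0539 by edgeR). It lost the call in 2 of 22 alternatives, with an adjusted p of up to 0.0758 (by edgeR, DESeq2 or limma). *Sema7a*, which is held to the membrane by a lipid anchor and binds plexin-C1 and integrins, was at 37.5 to 48.6 CPM in *Nae1* cKO nerves, against 31.5 to 33.9 CPM in WT nerves (0.38, edgeR adjusted p = 0.0087). *Sema4a*, *Sema4b*, *Sema4d* and *Sema5b* did not pass the test.

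**Figure D3:**
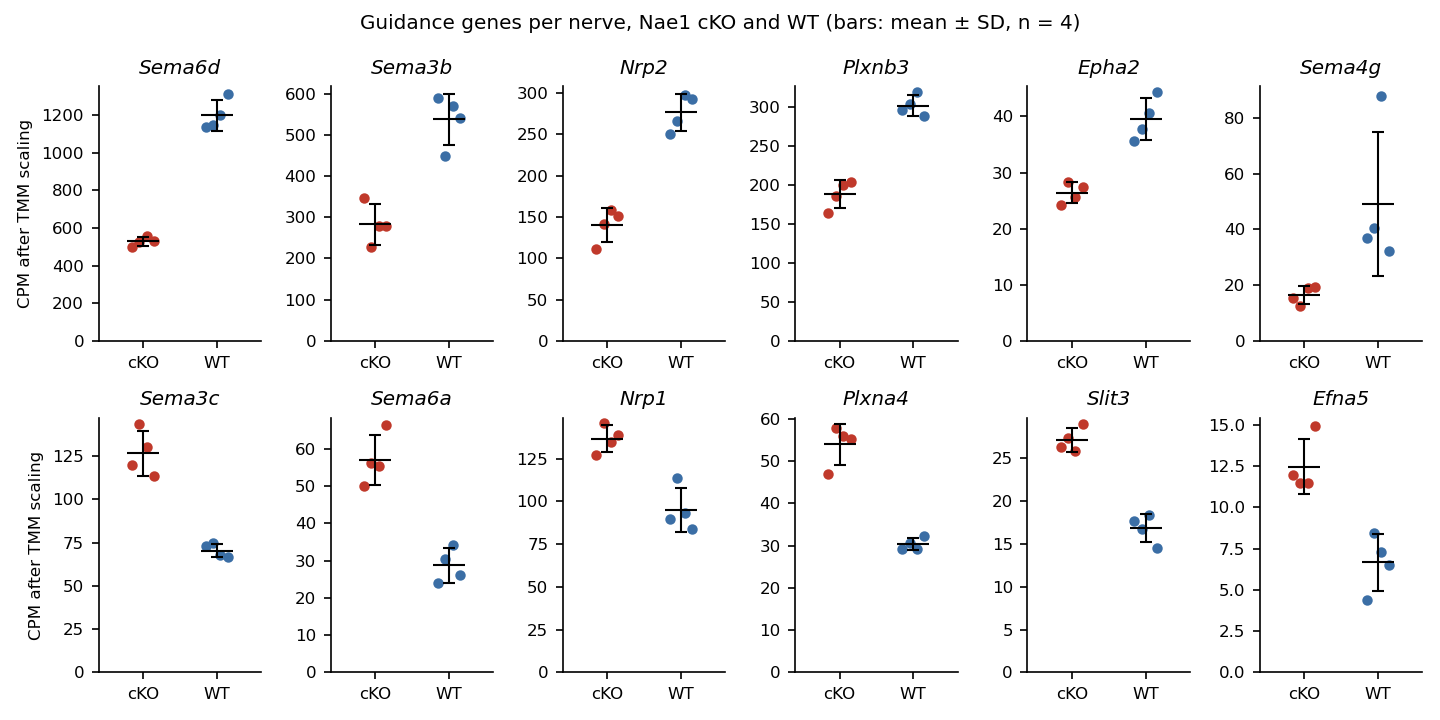
CPM after TMM scaling (vertical axes, starting at 0) of 12 called guidance genes in each *Nae1* cKO nerve (red) and WT nerve (blue), with black bars for the mean ± SD of 4 nerves. In each panel the groups do not overlap; the upper row holds genes lower and the lower row genes higher in *Nae1* cKO nerves, and 1 WT nerve, L4, stands out for *Sema4g*.

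The neuropilins moved in opposite directions. *Nrp2* (ENSMUSG00000025969.15, GRCm38 chromosome 1, 62703285 to 62818695, plus strand), whose product binds SEMA3F, SEMA3C and VEGF-C, was at 111, 141, 158 and 151 CPM in *Nae1* cKO nerves, against 250.5, 266, 297 and 293 CPM in WT nerves. *Nrp1* (ENSMUSG00000025810.9, GRCm38 chromosome 8, 128358604 to 128503363, plus strand), whose product binds SEMA3A and VEGF-A, was at 127, 146, 135 and 139 CPM in *Nae1* cKO nerves, against 89.6, 114, 93.4 and 84.1 CPM in WT nerves. Neither gene's groups overlapped, although *Nrp1* in WT nerve L3 came close to the lowest mutant nerve, K2. The log2 fold changes were −0.98 with an SE of 0.11 (adjusted p = 4.2e-05 by edgeR) for *Nrp2* and 0.52 with an SE of 0.10 (adjusted p = 0.0015 by edgeR) for *Nrp1*. The order of the pair differed between the groups. The TPM ratio of *Nrp1* to *Nrp2* was 2.02, 1.78, 1.48 and 1.61 in *Nae1* cKO nerves, against 0.612, 0.734, 0.548 and 0.486 in WT nerves, above 1 in every mutant nerve and below 1 in every control.

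Of the 9 plexins, the transmembrane receptors that signal for semaphorins, *Plxna4* and *Plxnb2* were higher and *Plxna1*, *Plxna3*, *Plxnb1* and *Plxnb3* lower. *Plxna4* (ENSMUSG00000029765.12, GRCm38 chromosome 6, 32144268 to 32588192, minus strand), a receptor for class 6 semaphorins and, with neuropilin 1, for SEMA3A, was at 46.9, 57.8, 55.9 and 55.3 CPM in *Nae1* cKO nerves, against 29.1, 30.6, 29.3 and 32.2 CPM in WT nerves, with little spread among controls. Its log2 fold change was 0.83 with an SE of 0.088 (adjusted p = 3.1e-05 by edgeR). *Plxna1*, a receptor of SEMA6D and a partner of neuropilins, was at 79.0 to 115 CPM in *Nae1* cKO nerves, against 115 to 155 CPM in WT nerves (−0.55, adjusted p = 0.0079 by edgeR), and mutant nerve L8 lay just under control K1. *Plxna3*, a partner of neuropilin 2, was at 30.4 to 53.2 CPM in *Nae1* cKO nerves, against 61.8 to 73.9 CPM in WT nerves (−0.60, adjusted p = 0.0117 by edgeR), lowest in mutant nerve K2. With library totals in place of TMM, both lost their calls in edgeR, *Plxna1* at −0.40 (adjusted p = 0.0577) and *Plxna3* at −0.43 (adjusted p = 0.0841). *Plxnb3* (ENSMUSG00000031385.14, GRCm38 chromosome X, 73757090 to 73772514, plus strand) was the most abundant plexin in WT nerves by TPM and fell to 164, 185, 200.1 and 204 CPM in *Nae1* cKO nerves, against 296, 304, 319 and 288 CPM in WT nerves (−0.68, adjusted p = 8.9e-05 by edgeR). *Plxnb1*, the receptor of SEMA4D, was at 70.2, 80.3, 81.4 and 96.9 CPM in *Nae1* cKO nerves, against 136, 132, 195 and 119 CPM in WT nerves. Its highest level was in WT nerve L4, and its log2 fold change was −0.82 with an SE of 0.15 (adjusted p = 0.002 by edgeR), against −0.65 (edgeR adjusted p = 0.0015) without that nerve. *Plxnb2*, the receptor of SEMA4C and SEMA4G, was at 136, 148, 152 and 174 CPM in *Nae1* cKO nerves, against 109, 121, 98.4 and 95.3 CPM in WT nerves (0.53, adjusted p = 0.0018 by edgeR). *Plxnd1* was at 99.6 to 151 CPM in *Nae1* cKO nerves, against 109 to 153 CPM in WT nerves (−0.028, adjusted p = 0.902 by edgeR), overlapping groups that the test did not separate, and *Plxna2* and *Plxnc1*, the receptor of SEMA7A, did not pass either. Within a nerve, the TPM ratio of *Plxnb2* to *Plxnb1* was 1.78, 2.30, 2.19 and 2.22 in *Nae1* cKO nerves, against 0.904, 1.32, 0.544 and 0.849 in WT nerves. That of *Plxnb2* to *Plxnb3* was 0.915, 0.943, 0.849 and 1.0 in *Nae1* cKO nerves, against 0.404, 0.478, 0.375 and 0.357 in WT nerves, and that of *Plxna4* to *Plxna1* was 0.270, 0.368, 0.331 and 0.253 in *Nae1* cKO nerves, against 0.150, 0.0891, 0.103 and 0.142 in WT nerves. These pairs were chosen after the values of their genes were known, so the ratios are a description without a test.

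**Figure D4:**
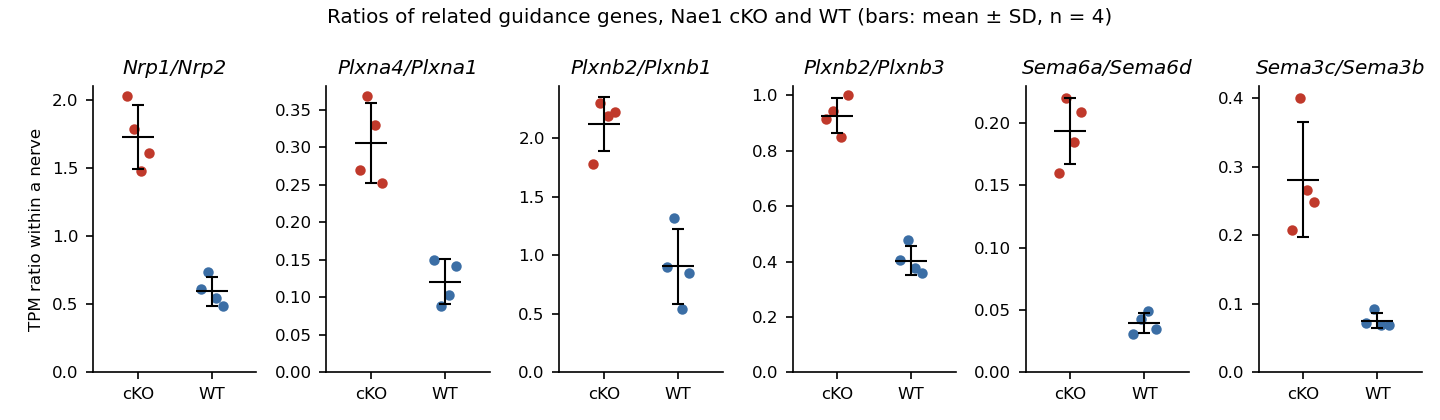
Ratio of the TPM of 2 related guidance genes within each nerve (vertical axes, no unit, starting at 0) in *Nae1* cKO (red) and WT (blue) nerves, with black bars for the mean ± SD of 4 nerves. The ratio of *Nrp1* to *Nrp2* lies at 1.48 to 2.02 in *Nae1* cKO nerves and at 0.486 to 0.734 in WT nerves.

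Ephrins and Eph receptors, which signal in both directions where cells touch, had 1 gene higher and 4 lower among the 19 tested, or 5 called of 19, which is close to the 26.4% called over all genes. All 4 lower genes were EphA receptor kinases. *Epha2* (ENSMUSG00000006445.3, GRCm38 chromosome 4, 141301240 to 141329384, plus strand) was at 24.2, 28.4, 25.6 and 27.4 CPM in *Nae1* cKO nerves, against 35.6, 37.7, 40.5 and 44.4 CPM in WT nerves. The groups were well apart, by a log2 fold change of −0.58 with an SE of 0.10 (adjusted p = 7.4e-04 by edgeR). *Epha6* was at 27.6 to 35.7 CPM in *Nae1* cKO nerves, against 39.1 to 51.4 CPM in WT nerves (−0.51, adjusted p = 0.0046 by edgeR). *Epha4*, a receptor that binds ephrins of both classes, was at 19.4 to 25.5 CPM in *Nae1* cKO nerves, against 28.4 to 36.0 CPM in WT nerves (−0.51, adjusted p = 0.0064 by edgeR). *Epha5*, the most abundant EphA gene by TPM, was at 63.1 to 72.1 CPM in *Nae1* cKO nerves, against 76.8 to 98.3 CPM in WT nerves and had the smallest change of the called EphA genes (−0.36, adjusted p = 0.0127 by edgeR). With library totals in place of TMM, edgeR called neither *Epha5* (−0.20, adjusted p = 0.149) nor *Epha4* (−0.35, adjusted p = 0.0707). The gene that was higher was *Efna5* (ENSMUSG00000048915.12, GRCm38 chromosome 17, 62604184 to 62881317, minus strand), which encodes ephrin-A5, a lipid-anchored ligand of EphA receptors. It was at 11.9, 11.5, 11.5 and 14.9 CPM in *Nae1* cKO nerves, against 4.38, 8.47, 7.32 and 6.52 CPM in WT nerves. The log2 fold change was 0.90 with an SE of 0.19 (adjusted p = 0.0035 by edgeR), and it rests on 160 to 214 counts per *Nae1* cKO nerve and 60 to 117 per WT nerve. *Epha1*, *Epha3* and *Epha7* and the ephrin-A genes *Efna1*, *Efna2* and *Efna4* did not pass the test.

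Of the 8 ephrin-B and EphB genes tested, 0 were called by edgeR, against 26.4% of all genes tested. Whether these shares differ was not tested. By edgeR, 2 of the 8 had an unadjusted p under 0.05 (*Efnb2* and *Ephb1*). DESeq2 called 0 and limma-voom 1 (*Ephb1*). *Efnb1*, the most abundant ephrin by TPM, was at 37.5 to 50.6 CPM in *Nae1* cKO nerves, against 44.9 to 56.3 CPM in WT nerves (−0.16, adjusted p = 0.315 by edgeR). *Efnb2*, known as the arterial partner of venous EphB4, was at 14.3, 15.5, 16.3 and 17.7 CPM in *Nae1* cKO nerves, against 11.2, 14.0, 13.8 and 11.5 CPM in WT nerves. Its 4 mutant nerves lay above its 4 controls by a narrow margin and it did not pass (0.33, adjusted p = 0.0627 by edgeR), but it did in 4 of 22 alternatives (adjusted p 0.0084 to 0.225 over all 22, by edgeR, DESeq2 or limma). *Ephb1* was at 4.18, 2.44, 2.99 and 3.42 CPM in *Nae1* cKO nerves, against 2.85, 1.95, 1.51 and 1.27 CPM in WT nerves and did not pass (0.77, adjusted p = 0.055 by edgeR), but it did in 11 of 22 alternatives (adjusted p 0.0131 to 0.138 over all 22, by edgeR, DESeq2 or limma). Its counts were 35 to 56 in *Nae1* cKO nerves and 16 to 39 in WT nerves. *Ephb6*, which encodes a receptor without kinase activity and had the highest TPM of all Eph genes, was at 65.1 to 107 CPM in *Nae1* cKO nerves, against 82.5 to 95.2 CPM in WT nerves (−0.11, adjusted p = 0.591 by edgeR), with its highest level in mutant nerve K2, and without K2 it was called (−0.27, edgeR adjusted p = 0.0337). *Ephb3* was at 25.4, 38.0, 38.8 and 38.8 CPM in *Nae1* cKO nerves, against 39.2, 43.7, 41.4 and 33.3 CPM in WT nerves, lowest in K2 (−0.16, adjusted p = 0.442 by edgeR). *Ephb2*, *Ephb4* and *Efnb3* did not pass the test either.

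Both tested Slit genes, which encode secreted repellents, were higher. *Slit3* (ENSMUSG00000056427.10, GRCm38 chromosome 11, 35121224 to 35708507, plus strand) was at 26.3, 27.3, 25.8 and 29.0 CPM in *Nae1* cKO nerves, against 17.7, 16.7, 18.4 and 14.5 CPM in WT nerves. All mutant nerves were above all controls, and *Slit3* had a log2 fold change of 0.69 with an SE of 0.10 (adjusted p = 3.2e-04 by edgeR). *Slit2*, the most abundant Slit gene, was at 241, 235, 253 and 245 CPM in *Nae1* cKO nerves, against 189, 127, 185 and 213 CPM in WT nerves. Its mutant nerves lay close together and above every control, among which L3 was lowest, and the log2 fold change was 0.45 with an SE of 0.13 (adjusted p = 0.0233 by edgeR). The call of *Slit2* was lost without *Nae1* cKO nerve L5 (adjusted p = 0.0618 by edgeR) or L8 (0.0559). Of the Slit receptors, *Robo2* was at 7.39, 7.52, 7.21 and 5.92 CPM in *Nae1* cKO nerves, against 3.58, 4.63, 3.51 and 5.72 CPM in WT nerves (0.69, adjusted p = 0.0154 by edgeR). That call was lost without WT nerve K1 (adjusted p = 0.0515 by edgeR) or L4 (0.0511). *Robo1* was at 2.69, 6.69, 6.25 and 5.51 CPM in *Nae1* cKO nerves, against 3.29, 4.05, 3.87 and 2.78 CPM in WT nerves, lower in K2 than in the other mutant nerves. It did not pass (0.59, adjusted p = 0.115 by edgeR), and without K2 it was called (0.80, edgeR adjusted p = 0.0041). *Robo4*, known as the Robo of endothelium, was lower, at 6.62 to 8.29 CPM in *Nae1* cKO nerves, against 9.06 to 11.8 CPM in WT nerves (−0.53, adjusted p = 0.0156 by edgeR), and lost its call without WT nerve L4 (−0.46, adjusted p = 0.0530) or with library totals (−0.37, adjusted p = 0.0888). Of the 10 endothelial markers, 4 were lower in *Nae1* cKO nerves and 6 did not pass the test, and their part in the level of *Robo4* was not tested.

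Netrin 1, an attractant through DCC and a repellent through UNC5 receptors, showed no difference that its spread could resolve. *Ntn1* was at 62.5, 52.6, 42.0 and 60.0 CPM in *Nae1* cKO nerves, against 75.2, 61.5, 37.1 and 24.2 CPM in WT nerves, and both ends of this range were WT nerves (0.13, adjusted p = 0.823 by edgeR). *Dcc* had 1 to 3 counts in *Nae1* cKO nerves and 1 to 5 in WT nerves. Among UNC5 genes, *Unc5c* was higher, at 12.7, 12.9, 16.0 and 18.3 CPM in *Nae1* cKO nerves, against 8.62, 12.4, 9.61 and 8.90 CPM in WT nerves (0.60, adjusted p = 0.0151 by edgeR). Its call was lost in edgeR fits without *Nae1* cKO nerve L8 (0.49, adjusted p = 0.0543) or WT nerve K1 (0.54, adjusted p = 0.0505). *Unc5a* ranged from 2 to 34 counts in *Nae1* cKO nerves and from 13 to 31 in WT nerves (−0.53, adjusted p = 0.551 by edgeR), and *Unc5b* did not pass the test.

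Promoters were read from RefSeq (GRCm38.p6) from 250 bases before to 50 bases after each annotated start, with windows for 56 of the 66 genes. Of the called genes, 10 of the 12 higher and 16 of the 18 lower had a window. The called genes *Plxna4*, *Sema6a*, *Plxna1* and *Sema3b* had none and were not searched. Short motifs of factors that are active in Schwann cells or under oxidative stress were searched on both strands. AP-1 (TGANTCA) had a match in 3 of the 56, or 5.36%, against 8.97% of 27025 genes with a window. The antioxidant response element (TGACNNNGC) had one in 8, or 14.3%, against 14.0%, the TEAD motif (GGAATG) in 8, or 14.3%, against 16.6%, and the EGR motif (GCGTGGGCG) in 2, or 3.57%, against 0.707%. The shares for the antioxidant response element and TEAD lay near those of all promoters and that for AP-1 was lower. The 2 EGR matches were in *Efna3*, below the filter, and *Plxna2*, which was not called. Among called genes, matches to AP-1 were in *Sema4c* and *Sema6b* (both lower), to the antioxidant response element in *Efna5* and *Sema7a* (higher) and *Plxnb3*, *Sema3g* and *Sema5a* (lower), and to TEAD in *Robo2* (higher) and *Epha2* and *Plxnb1* (lower). A TGACNNNGC match can share its first bases with a TGANTCA match, and the printed windows hold no such overlap. The 250 bases before the start are shown for the gene with the smallest adjusted p, which held no match, and for 3 called genes with a match to AP-1, TEAD and the antioxidant response element, where capitals mark the matched bases (5′ to 3′, on the gene's strand):
Sema6d, chr2:124089719-124089968, plus strand: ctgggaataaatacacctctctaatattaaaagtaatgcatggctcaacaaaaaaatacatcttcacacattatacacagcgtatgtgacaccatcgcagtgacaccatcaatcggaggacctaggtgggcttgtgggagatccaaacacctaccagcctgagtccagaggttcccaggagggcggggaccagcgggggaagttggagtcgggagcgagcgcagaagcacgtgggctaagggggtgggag
Sema4c, chr1:36558382-36558631, minus strand: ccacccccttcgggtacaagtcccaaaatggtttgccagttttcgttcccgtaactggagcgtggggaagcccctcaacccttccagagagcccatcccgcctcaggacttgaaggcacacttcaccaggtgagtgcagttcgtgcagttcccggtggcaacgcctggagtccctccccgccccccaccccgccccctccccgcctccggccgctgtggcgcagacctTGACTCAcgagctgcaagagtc
Epha2, chr4:141300971-141301220, plus strand: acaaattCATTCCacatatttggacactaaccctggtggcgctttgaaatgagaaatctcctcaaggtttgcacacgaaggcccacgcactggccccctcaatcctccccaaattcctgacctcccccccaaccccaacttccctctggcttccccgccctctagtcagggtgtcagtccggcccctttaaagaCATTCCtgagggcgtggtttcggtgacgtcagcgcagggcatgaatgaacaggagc
Sema7a, chr9:57939862-57940111, plus strand: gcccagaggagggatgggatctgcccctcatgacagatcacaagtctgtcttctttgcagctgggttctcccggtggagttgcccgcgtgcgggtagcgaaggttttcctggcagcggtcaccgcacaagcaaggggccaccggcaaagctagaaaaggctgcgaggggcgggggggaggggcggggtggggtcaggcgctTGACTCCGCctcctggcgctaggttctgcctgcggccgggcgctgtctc
A match says only that these letters stand in the window.

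The deposited length of a gene, the mean length of its transcripts weighted by their estimated abundance, differs between nerves when transcript usage differs. It could be tested for 48 guidance genes that have at least 2 transcripts and 10 counts in every nerve. Of these 0 were called by limma at an adjusted p under 0.05, against 0% of 11160 genes, with 2 guidance genes and 780 genes (6.99%) at an unadjusted p under 0.05. *Epha6* had the smallest p, with a length of 3353 ± 74.2 bases in *Nae1* cKO nerves and 3126 ± 72.3 bases in WT nerves (SD, n = 4 each, limma adjusted p = 0.433). *Epha7* had 3893 ± 162 bases in *Nae1* cKO nerves and 4373 ± 283 bases in WT nerves (SD, n = 4 each, limma adjusted p = 0.605). *Sema6d* had 5962 ± 52.9 bases in *Nae1* cKO nerves and 5944 ± 32.0 bases in WT nerves, and *Nrp2* had 5988 ± 97.2 and 5867 ± 66.8 bases in the same order.

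Other genes of guidance signaling also changed in both directions. Of 24 tested genes for further cues and receptors, 9 were higher and 2 lower by edgeR, with a median log2 fold change of 0.35. Over all genes tested 14.1% were higher and 12.3% lower, 26.4% together, against 45.8% called in this list and 43.8% and 50% in the lists below. These genes were chosen with earlier results known, so the shares are a description. Among them were the teneurins, large transmembrane adhesion proteins at contacts between neurons. *Tenm1* was at 102 ± 8.25 CPM in *Nae1* cKO nerves and 23.1 ± 3.08 CPM in WT nerves (SD, n = 4 each), or 2.14 with an SE of 0.11 (adjusted p = 1.1e-07 by edgeR) on the log2 scale, and *Tenm3* at 678 ± 33.0 CPM in *Nae1* cKO nerves and 316 ± 27.3 CPM in WT nerves (SD, n = 4 each) (1.10, edgeR adjusted p = 2.1e-06). *Flrt3*, whose product binds UNC5 receptors and Robo1, had 1.33 (edgeR adjusted p = 3.3e-06), and *Ntng1*, netrin-G1, had 0.96 (edgeR adjusted p = 2.1e-04). Of 48 tested genes for proteins that carry guidance signals inside the cell, 9 were higher and 12 lower (median −0.024). The collapsin response mediator *Dpysl5* was at 0.970 ± 0.300 CPM in *Nae1* cKO nerves and 7.92 ± 1.99 CPM in WT nerves (SD, n = 4 each), or −3.02 with an SE of 0.25 (adjusted p = 5.1e-06 by edgeR) on the log2 scale, while its relative *Dpysl3* was higher (1.19, edgeR adjusted p = 2.3e-05). *Rnd3* had 1.06 (edgeR adjusted p = 6.5e-05), and the kinase gene *Fyn* had −0.61 (edgeR adjusted p = 5.0e-05). Of 14 genes for proteins that cleave or bind ephrins and Eph receptors, 2 were higher and 5 lower (median −0.021). *Adam10*, a protease that sheds ephrins, was at 546 ± 14.4 CPM in *Nae1* cKO nerves and 847 ± 109 CPM in WT nerves (SD, n = 4 each) (−0.63, edgeR adjusted p = 3.8e-04). *Pick1* (−0.84) was lower and *Sdcbp*, syntenin (0.55), higher, which both encode PDZ-domain proteins that can bind ephrin-B tails. *Anks1b*, a relative of the Eph adaptor *Anks1*, was at 59.3 ± 5.09 CPM in *Nae1* cKO nerves and 7.05 ± 1.52 CPM in WT nerves (SD, n = 4 each), or 3.07 with an SE of 0.15 (adjusted p = 9.2e-08 by edgeR) on the log2 scale.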

How the data were processed

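RNA of P7 sciatic nerves was compared between 4 *Nae1* cKO and 4 WT mice, with groups taken from the genotype labels. For each library the authors deposited an RSEM table with the expected count (an estimated number of fragments, unscaled), TPM (which the authors' scaling brings to a sum of 1000000), FPKM (scaled by the authors for length and depth) and other values in bases, the deposited gene lengths. STAR, RSEM, FastQC 0.11.5 and the GRCm38 build come from the submitters' processing notes. The methods of the paper name TopHat on mm10 and Cuffdiff, which were not repeated. Neither the strand setting nor the release of the annotation is given in the sources used here, so reads of overlapping genes may be shared. All 66 genes matched GENCODE vM21 by identifier without version. The members and gene lists were chosen with earlier results of these data known.

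Expected counts were rounded, filtered by filterByExpr, scaled by TMM and tested with edgeR 4.0.16 (robust quasi-likelihood, no covariates) in R 4.3.3, with Benjamini-Hochberg adjustment over 17090 genes. Log2 transcript lengths were tested with limma 3.58.1 over 11160 genes. Genes named with values were *Nae1*, called members, the most abundant member of each family, uncalled members with a log2 change over 0.5 in size and, from each of 3 further lists, the 4 genes with the smallest adjusted p. *Efnb2*, *Ephb3*, *Ntn1*, the counts of *Sema3a* and *Dcc*, the lengths of *Epha7* and the gene pairs of the ratios were added after their values were seen. No pair of same-genotype nerves was as close as sampling noise allows (chi-square per gene 4.08 to 56.6). Pairs with *Nae1* cKO nerve K2 had 42.2 to 56.6, the other *Nae1* cKO pairs 4.08 to 9.71 and WT pairs 12.4 to 25.4. On simulated counts (16843 genes, 4 against 4) edgeR called 28.6% of the 98 genes given a 1.5-fold change, 68.4% of the 98 given a 2-fold change, and 4 unchanged genes among its 99 calls. There, a far smaller share of genes changed than the 26.4% that edgeR called in these nerves, so its recovery rates do not carry over. The other marker lists gave 1 higher and 0 lower of 8 mural genes, 1 higher and 1 lower of 6 tested perineurial genes (which share *Ntn4* with the list of further cues) and 2 higher and 0 lower of 6 tested neuronal genes. Alternatives were DESeq2 1.42.0, limma-voom, other scalings and filters, limma on deposited TPM and FPKM, K or L of the library name as a covariate or a limit, removal of mitochondrial genes and 7SK, WT nerves K1 and L4 left out, and each nerve left out in turn.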

Additional observations from a re-analysis of the deposited data

Results flagged for a closer look

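Among 114 groups of 4 nerves (57 tested genes in 2 genotypes), 5 had 1 nerve far from the other 3, by a gap that exceeded Dixon's 95% critical value for the group's range in CPM. Chance flags about 1 in 20 groups. In *Nae1* cKO nerve K2, *Ephb3* was low (25.4 CPM, others of its group 38.0 to 38.8 CPM) and *Sema3g* high (27.8 CPM, others 23.0 to 23.5 CPM). *Efna5* was at 14.9 CPM in *Nae1* cKO nerve L8 and at 11.5 to 11.9 CPM in the other 3. *Sema4g* was at 87.7 CPM in WT nerve L4, which had the highest summed level of muscle markers, and at 32.1 to 40.3 CPM in the other controls. WT nerve K1, with 1437 CPM of muscle markers, had 37.0 CPM of *Sema4g*, and the part of muscle was not tested. *Sema7a* was at 31.5 CPM in WT nerve L3 and at 33.5 to 33.9 CPM in the other controls.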

How the results depend on the processing

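Of the 30 called guidance genes, 0 changed direction in 22 alternatives each and 9 stayed called in all of them. On counts alone (19 alternatives) 18 stayed called. Limma on log2(TPM + 1) called 6 higher and 5 lower guidance genes (1721 genes in all) and limma on log2(TPM + 0.1) 6 and 5 (1660 genes, with 7 guidance genes past 2-fold). *Epha4*, *Epha5*, *Plxna1*, *Plxna3* and *Robo4* lost their calls with library totals and with log2(FPKM + 1), *Robo2* and *Unc5c* also with log2(FPKM + 1). Library totals moved the median of all genes to 0.16 on the log2 scale, gave 14 higher and 13 lower guidance genes and 6 past 2-fold, with 75.5% of all called genes higher against 53.5% with TMM; limma on log2(FPKM + 1) gave 76.4% and on TPM 75.4% and 75.0%. Without WT nerves K1 and L4, 7 were higher and 14 lower and 2402 genes were called, and *Epha4*, *Plxna3*, *Robo2*, *Robo4*, *Sema3e*, *Sema5a*, *Sema7a*, *Slit2* and *Unc5c* lost their calls, a fit with fewer samples. In only the nerves with the letter L, 12 were higher and 17 lower, and 27 of the 30 calls were kept. Over all 22 alternatives *Slit2* lost its call in 6 and *Robo2* in 7. Leaving out 1 nerve in turn gave 10 to 14 higher and 17 to 18 lower guidance genes, 3 to 6 past 2-fold, 3583 to 5227 called genes and 0 to 0 guidance genes with a called change of length. Uncalled genes near 0 changed sign: *Ephb6* (0.038, 0.046, 0.048 and 0.075), *Efnb1* (2.9e-05, 0.076, 0.076 and 0.10) and *Plxnd1* (0.13, 0.076, 0.072 and 0.10) with library totals, log2(TPM + 1), log2(TPM + 0.1) and log2(FPKM + 1), *Ephb3* with library totals (0.0041), *Ntn1* without WT nerve L9 (−0.096), and *Plxnd1* in nerves of the letter L (0.039), without WT nerves K1 and L4 (0.057), without *Nae1* cKO nerve K2 (0.065) and without WT nerve L4 (0.058). With 1 nerve left out in turn, *Plxnd1* ranged from −0.12 to 0.065 and *Ntn1* from −0.096 to 0.40. The cause was not tested. A 1.5-fold change was often missed in the simulation, but fewer genes changed there than were called here, so that rate does not carry over. *Ephb1*, *Robo1*, *Robo2*, *Efna1*, *Epha1* and *Unc5a*, among others, rest on few counts. *Sema6b*, called and past 2-fold, had 38 to 54 counts in *Nae1* cKO nerves and 87 to 130 in WT nerves.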
